A study of Arabidopsis thaliana with 10 samples.

Results

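Arabidopsis seedlings exposed to salt for 3 h were compared with untreated seedlings taken at 3 h, over the long noncoding RNAs (lncRNAs) in RNA from which poly(A)+ transcripts had been removed. The salt group was 12-day-old Col-0 wild-type seedlings given 200 mM NaCl, and the control group was 12-day-old Col-0 seedlings with no treatment, 1 library each. They are 2 of the 10 samples of the series. Of the others, salt at 12 h, drought (mannitol at 300 mM, which withdraws water osmotically), cold (4 °C) and heat (37 °C) are set beside salt at 3 h where it helps to place a value; the mixed-tissue sample is not analysed here. Ribosomal RNA had been taken out as well, fragments of 200 to 500 nt were kept and strand-specific libraries were read from 1 end over 100 nt, per the labels' protocols. The labels do not give the number of seedlings behind a library. They list no control at 12 h, so a 12 h library set against the 3 h control differs in time too. The tables hold lncRNA loci and no coding marker gene, so the labelled tissue was not checked against markers.

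The 1362 loci with values were 384 annotated loci and 978 loci predicted by the authors, of which 358 are called level 1 and 620 level 2. Values are RPKM, reads per kilobase of exon and per M reads mapped, and the whole reads behind each were recovered from them. A locus is called higher or lower in salt where log2(RPKM + 1) differed from the control by at least 1, which is 2-fold on that scale. This understates the change of low loci, and no locus with less than 1 RPKM in control could reach a call of lower. Ratios are RPKM in salt over RPKM in control, with an exact (Clopper-Pearson) 95% interval of how the reads split between the libraries. With 1 library per condition no difference was tested, and the intervals and floors cover counting error only, not the spread between seedlings or libraries.

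High salt reaches plants both as an osmotic load and as sodium toxicity. The osmotic part overlaps with drought and works largely through abscisic acid. Sodium stress is signalled through calcium, which the SOS3 protein reads and passes to its kinases. Noncoding transcripts lie opposite, beside or between coding genes, and those without poly(A) tails include host transcripts of small nucleolar RNAs (snoRNAs) and transcripts of repeats. snoRNAs guide chemical modification of ribosomal RNA.

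The loci that the results turn on include repeats and snoRNA hosts, and 4 sequences show what they are. They were read from the RefSeq genome TAIR10.1 at the coordinates of the files or of RefSeq. The first is level2_lnc-185, whole, at chr2:3607063-3607302 on the plus strand; its capitals mark bases that equal the base 178 nt before. The second is level1_lnc-169, whole, at chr3:12670276-12670499 on the plus strand, shown since it carried the widest difference on the log scale. The third and the fourth are snoRNAs that lie inside loci that were lower in salt: AT5G01195 at chr5:1867740-1867831 on the minus strand, with the TGATGA and CTGA letters of the C and D boxes in capitals, and AT2G09700 at chr2:18973915-18974055 on the plus strand, with the ACA that stands 3 bases before its end in capitals.
level2_lnc-185: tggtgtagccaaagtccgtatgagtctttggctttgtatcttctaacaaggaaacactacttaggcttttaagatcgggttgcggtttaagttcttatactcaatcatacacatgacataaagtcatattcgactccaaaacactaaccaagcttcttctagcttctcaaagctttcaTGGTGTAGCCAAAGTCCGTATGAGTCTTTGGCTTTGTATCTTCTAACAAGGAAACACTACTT
level1_lnc-169: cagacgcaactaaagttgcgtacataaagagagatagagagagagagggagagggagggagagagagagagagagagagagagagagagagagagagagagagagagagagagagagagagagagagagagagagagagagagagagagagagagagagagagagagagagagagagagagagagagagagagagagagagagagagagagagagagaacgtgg
AT5G01195: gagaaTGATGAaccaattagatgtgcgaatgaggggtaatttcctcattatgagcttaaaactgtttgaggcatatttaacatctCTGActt
AT2G09700: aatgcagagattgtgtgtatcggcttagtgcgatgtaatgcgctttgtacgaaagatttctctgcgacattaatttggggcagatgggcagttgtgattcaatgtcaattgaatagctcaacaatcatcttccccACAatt

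The salt library held 31.5 M mapped reads and the control library 25.2 M. Of these, 11549 reads lay on lncRNA loci in salt and 11904 in control, which is 366 reads per M mapped reads (RPM) in salt and 473 RPM in control. AT1G15405, a locus the authors class as a small RNA precursor, took 29.0% of the lncRNA reads in salt and 44.0% in control. Without it, lncRNAs had 260 RPM in salt and 265 RPM in control, a ratio of 0.982 (95% interval 0.951 to 1.01). At least 1 read fell on 518 loci in salt and on 284 in control. Thinned to the depth of the control, the salt library would show 489 loci. The control stood apart in this, since the 7 other stress libraries showed 406 to 656 loci at the depth of the control or their own lower one.

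In salt, 47 loci were higher (3.45% of the 1362) and 28 were lower (2.06%). Higher loci made up 62.7% of the called ones. In whole seedlings, fewer cells that make a transcript and less of it per cell cannot be told apart. All 28 lower loci were among the 55 with at least 1 RPKM in the control, while 91 loci had at least 1 RPKM in salt. No read was seen in the control for 22 of the 47 higher loci, and none in salt for 7 of the 28 lower ones. Reads were present in salt alone for 297 loci, in control alone for 63, in both for 221 and in neither for 781. With no pseudocount, 93 loci were at least 2-fold higher with an interval above 1 (6.83%) and 41 at least 2-fold lower with an interval below 1 (3.01%). Over the 59 loci with at least 5 reads in each of the 9 libraries, the median salt to control ratio lay at log2 0.14, and values below are not corrected for this shift.

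**Figure D1:**
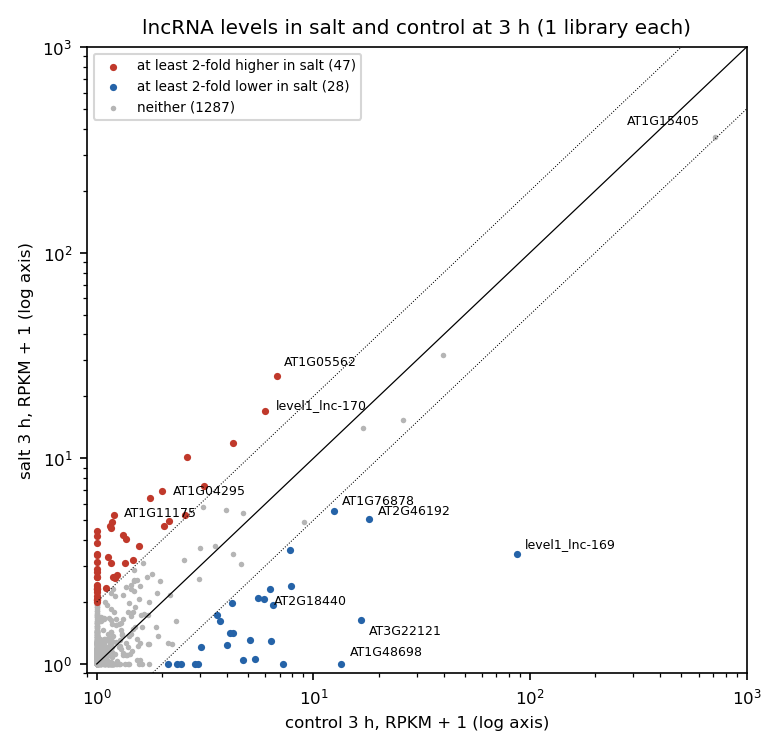
Each point is 1 lncRNA locus, with RPKM + 1 in control on the x axis and in salt at 3 h on the y axis, both log axes, 1 library each. The 47 higher loci lie above the upper dotted 2-fold line, many of them at 0 control reads on the left edge, and the 28 lower loci lie below the lower dotted line.

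Higher loci with coding neighbours included AT1G11175. It is an annotated locus of 798 nt at chr1:3744858-3745655 that ends 119 bp before SCAMP2, the gene of a secretory carrier membrane protein, on the same strand. It had 4.29 RPKM (108 reads) in salt and 0.199 RPKM (4 reads) in control, a ratio of 21.6 (8.18 to 80.6). In the 7 other stress libraries it had 4 to 16 reads, and its RPKM in salt at 3 h was 6.0 times (3.30 to 12.0) that of the highest of them, drought at 12 h. In salt at 12 h 4 reads remained, at 0.285 RPKM. AT1G11185 lies on the other side of SCAMP2, 31 bp from BFN1 and on the strand opposite to it; BFN1 codes for a nuclease known from leaf senescence. It had 3.68 RPKM (61 reads) in salt and 0.151 RPKM (2 reads) in control, a ratio of 24.4 (6.46 to 206). Unlike AT1G11175, it had more in 2 of the other libraries, with 143 reads at 7.91 RPKM in heat at 12 h and 85 reads at 5.08 RPKM in cold at 12 h.

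The locus with most reads among the higher ones was AT1G05562, which lies opposite UGT75B1, the gene of a glucosyltransferase. It had 24.1 RPKM (979 reads) in salt and 5.83 RPKM (189 reads) in control, a ratio of 4.14 (3.54 to 4.86). Salt at 3 h was its highest library, 1.21 times (1.10 to 1.34) drought at 3 h, where it had 19.9 RPKM. Its RPKM in salt at 12 h was 16.1, and in heat at 3 h it was 3.65.

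AT1G04295, opposite AT1G04290, had 5.92 RPKM (103 reads) in salt and 1.01 RPKM (14 reads) in control, a ratio of 5.88 (3.35 to 11.1). The other stress libraries had 1.52 to 9.13 RPKM, all above the control. AT2G19572, opposite the cytidine deaminase gene CDA1, had 74 reads in salt and 10 in control, a ratio of 5.91 (3.04 to 12.8). Its RPKM was 2.10 in salt, 0.356 in control and 1.33 to 3.28 in the other stress libraries, so the control alone was low. AT2G30362 lies opposite SIP4, the gene of a protein kinase that interacts with SOS3. It had 4.28 RPKM (204 reads) in salt and 1.55 RPKM (59 reads) in control, a ratio of 2.76 (2.06 to 3.76). Its 4.10 RPKM in drought at 3 h was within counting error of salt, with a salt to drought ratio of 1.04 (0.844 to 1.29). Cold had 3.70 RPKM (184 reads) at 3 h and 4.76 RPKM (229 reads) at 12 h, the highest of the 9 libraries. Salt at 12 h had 2.86 RPKM, drought at 12 h 1.82 RPKM, and heat 0.821 and 0.578 RPKM at 3 h and 12 h. AT5G64572, opposite the xylosidase gene XYL4, had 208 reads in salt and 72 in control, a ratio of 2.31 (1.76 to 3.06), and at log2 0.91 it was not called. Its highest library was cold at 12 h, with 15.9 RPKM (693 reads) beside 4.83 RPKM in salt at 3 h. The remaining annotated loci named here had fewer reads: AT3G12965, 133 bp from the seed maturation protein gene SMP1, had 38 in salt and 3 in control. Its highest library was drought at 12 h, with 13.7 RPKM (108 reads) beside 3.22 RPKM in salt at 3 h. AT1G10682, between genes, had 32 reads in salt and 2 in control, and cold at 12 h had most of it, 7.12 RPKM (109 reads) beside 2.11 RPKM in salt.

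Among predicted loci, level2_lnc-376 had 75 reads (3.20 RPKM) in salt and 0 in control, which is at least 20.0-fold higher against a floor of 3 reads. It lies at chr3:20872805-20873677 on the plus strand, on the transcribed pseudogene AT3G56275. It had 103 reads (7.88 RPKM) in salt at 12 h, and 47 and 72 in drought at 3 h and 12 h. Cold had 10 and 17 reads at 3 h and 12 h, and heat 0 and 1. Both osmotic treatments stood above cold and heat at the same times. The 300 bases from 250 before to 50 after its start, at chr3:20872555-20872854, are shown since they hold the letters ACGTG, the core of the element bound by abscisic acid response factors. For this locus the authors list the transcription factor PIF4 as a potential binder. The capitals mark the ACGTG core on both strands, where the matches overlap in CACGTG.
level2_lnc-376: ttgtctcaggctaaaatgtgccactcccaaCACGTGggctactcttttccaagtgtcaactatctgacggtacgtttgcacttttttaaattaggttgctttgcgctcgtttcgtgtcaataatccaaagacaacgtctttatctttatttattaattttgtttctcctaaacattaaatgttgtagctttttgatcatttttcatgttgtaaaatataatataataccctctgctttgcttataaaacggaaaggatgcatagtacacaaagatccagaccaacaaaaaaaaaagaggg

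The letters ACGTG stood, on either strand, in such windows of 9 of the 47 higher loci, 6 of the 28 lower loci and 23.1% of all 1362 windows. CCGAC, the core of the element bound by DREB factors, stood in 7 of the higher, 4 of the lower and 16.0% of all windows. Neither share among the called loci lay above that of all loci, and a match of letters is not a binding site. Of the 33 coding genes listed for salt and osmotic stress (the SOS pathway, ion transport, abscisic acid, and genes such as RD29A and RAB18), 1 had a measured lncRNA within 1000 bp. This was level2_lnc-504 near DREB2A, with 3 reads in salt and 0 in control.

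Loci that overlap a coding gene on its own strand were more often higher than lower in salt. Of the 1362 loci, 121 overlap a coding gene on their own strand; 14 of them (11.6%) were higher and 2 lower, against 3.45% and 2.06% of all loci. Their reads summed to 670 in salt and 247 in control, a ratio of 2.17 (1.87 to 2.52). Reads of such a locus and of the coding gene's own transcript cannot be told apart. Of those named by the rule, level1_lnc-339, in AT5G57710, had 9.14 RPKM (85 reads) in salt and 1.61 RPKM (12 reads) in control, a ratio of 5.66 (3.08 to 11.4). Cold at 3 h had more of it, 24.1 RPKM (234 reads). level2_lnc-608, on the strand of AT5G56220, had 22 reads in salt and 1 in control, with 2 reads in drought at 3 h and 17 in drought at 12 h.

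The following were chosen after their values were seen. level1_lnc-76, on the strand of AT1G80360, had 32 reads (3.44 RPKM) in salt and 0 in control, at least 8.52-fold higher, and at most 5 reads in any other library. level2_lnc-479, on the strand of AT4G30790, had 99 reads in salt and 23 in control. level2_lnc-488, on the strand of STY2, had 25 in salt and 0 in control. Opposite coding genes, level2_lnc-611 had 19 reads in salt and 0 in control (opposite PSY1, the gene of a secreted peptide), and its only other reads were 8 in heat at 12 h. level1_lnc-50, opposite HIT1, had 11 in salt, 0 in control and 1 elsewhere, in salt at 12 h. In all, 20 loci had reads in salt at 3 h and in none of the 8 other libraries, and the most reads any of them had was 8, for level2_lnc-284.

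**Figure D2:**
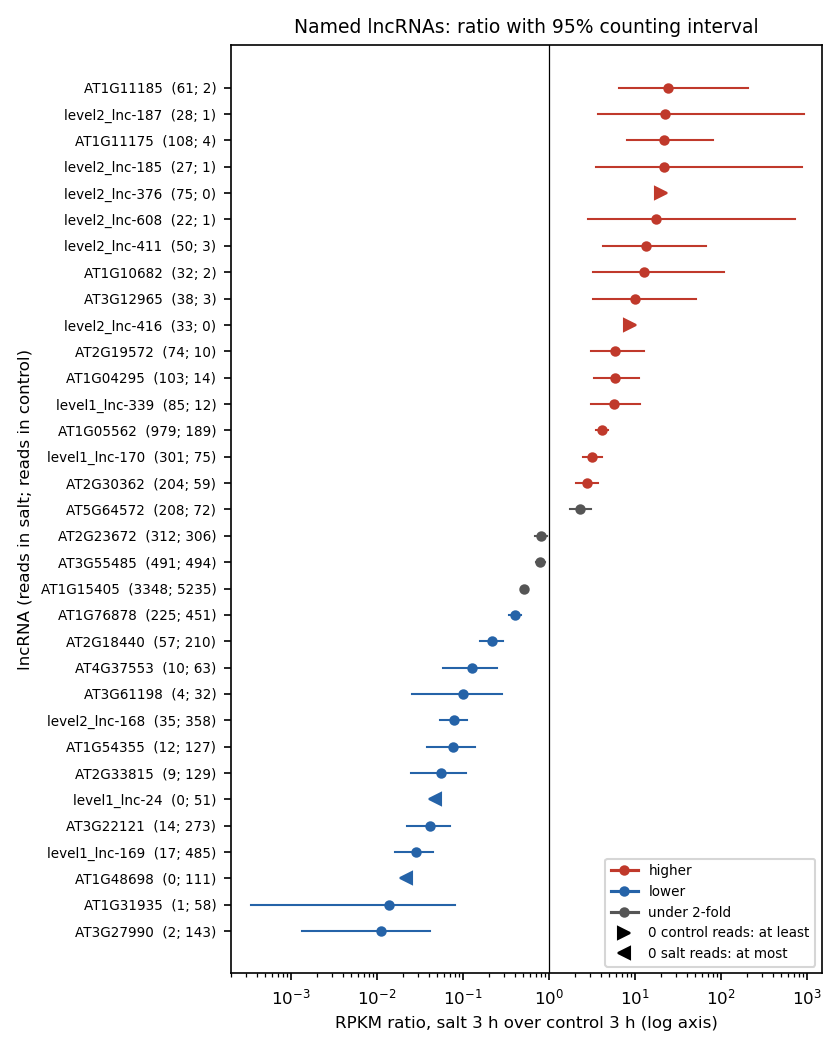
The x axis (log) gives the RPKM ratio of salt over control at 3 h for named loci with at least 20 reads in both libraries together, with bars for the 95% counting interval and the reads in salt and in control beside each name. Arrowheads mark bounds against a floor of 3 reads, such as level2_lnc-376 (75 and 0 reads) to the right and AT1G48698 (0 and 111 reads) to the left.

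Split by the authors' genomic class, predicted loci classed cis had 15 higher (6.05%) and 1 lower (0.403%) of 248, beside 3.45% and 2.06% of all loci. Most of these 15 overlap a coding gene on its own strand, such as level1_lnc-339, level1_lnc-76 and level2_lnc-479. They were thus counted above too, and their reads cannot be told apart from those of the coding transcript. Predicted antisense loci had 8 higher (3.13%, a share near that of all loci) and 0 lower of 256. Predicted loci classed intergenic had 3 higher (1.33%) and 6 lower (2.65%) of 226. Annotated loci had 8 higher (2.08%) and 14 lower (3.65%) of 384. Level 1 had 21 higher (5.87%) and 8 lower (2.23%) of 358, and level 2 had 18 higher (2.90%) and 6 lower (0.968%) of 620. The median exon length was 295 nt for higher loci and 525 nt for lower ones, beside 343 nt for all loci. Annotated loci are longer (median 911.5 nt), and they made up 14 of the 28 lower loci and 8 of the 47 higher ones. A short locus also needs fewer reads for a call of higher. Whether length goes with salt was not tested.

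**Figure D3:**
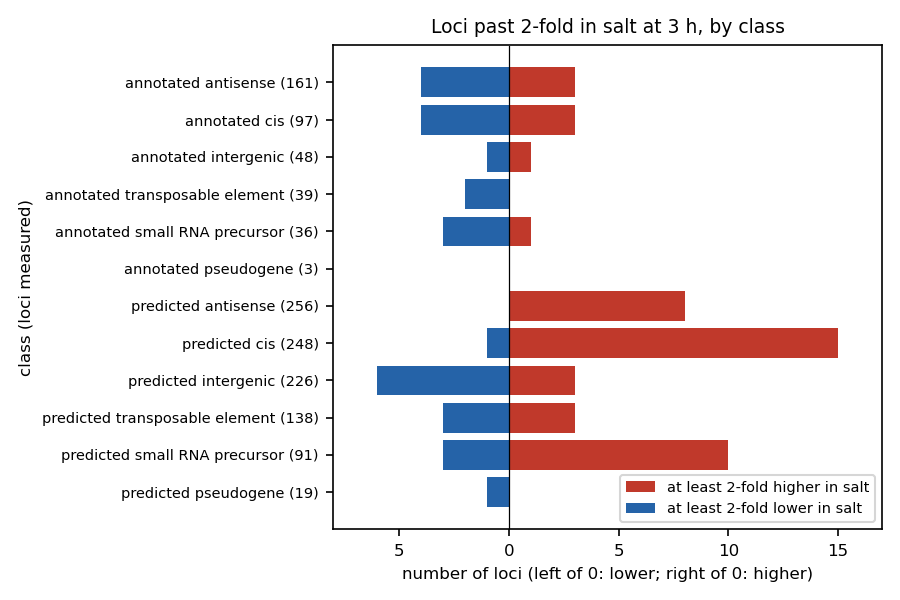
Bars give the number of loci at least 2-fold higher (right of 0) and lower (left of 0) in salt than in control at 3 h, by the authors' genomic class, with the loci measured in brackets. Predicted cis loci show 15 higher and 1 lower, and annotated antisense loci 3 higher and 4 lower.

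A family of tandem repeats was higher in salt. Loci whose genome sequence matches level2_lnc-185 with at least 80% identity over at least 100 nt number 26, a set chosen after the data were seen. A satellite with a unit of this length is known to fill the centromeres of Arabidopsis. Each of the 26 has alignments on all 5 chromosomes, and level2_lnc-185 has 654 over at least 90% of its length, counting overlapping ones within an array. The files do not say how reads that match many places were placed, so the loci are not independent of each other. Their reads summed to 720 in salt (22.8 RPM) and 181 in control (7.19 RPM), a ratio of 3.18 (2.70 to 3.76). Reads were present in 23 of the 26, and 9 were called higher (34.6% of the 26) and 1 lower (3.85%), beside 3.45% and 2.06% of all loci. The 9 include level2_lnc-185, the locus by which the family was defined, so these shares are a description and no excess was tested. The member with most reads, level1_lnc-170 on chromosome 3, had 16.0 RPKM (301 reads) in salt and 5.00 RPKM (75 reads) in control, a ratio of 3.21 (2.48 to 4.19), and without it the sum was 3.16 times (2.55 to 3.95) the control. On chromosome 4, level2_lnc-411 had 50 reads in salt and 3 in control, level2_lnc-413 had 87 in salt and 21 in control, and level2_lnc-416 had 33 in salt and 0 in control. level2_lnc-187 on chromosome 2 had 28 reads in salt and 1 in control, and level2_lnc-185 had 27 in salt and 1 in control. The member that was lower, level2_lnc-414, had 11 reads in salt and 29 in control; it lies opposite level2_lnc-413 over most of its length. The family was above the same control in the 7 other stress libraries as well, by 1.49 times (1.24 to 1.79) in cold at 3 h to 7.43 times (6.35 to 8.75) in drought at 12 h. At 3 h, salt had the most, with 22.8 RPM against 17.5 RPM in drought, 13.7 RPM in heat and 10.7 RPM in cold. The 12 h libraries all had more, 32.4 to 53.4 RPM. With a control at 3 h only, stress and time cannot be told apart there.

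**Figure D4:**
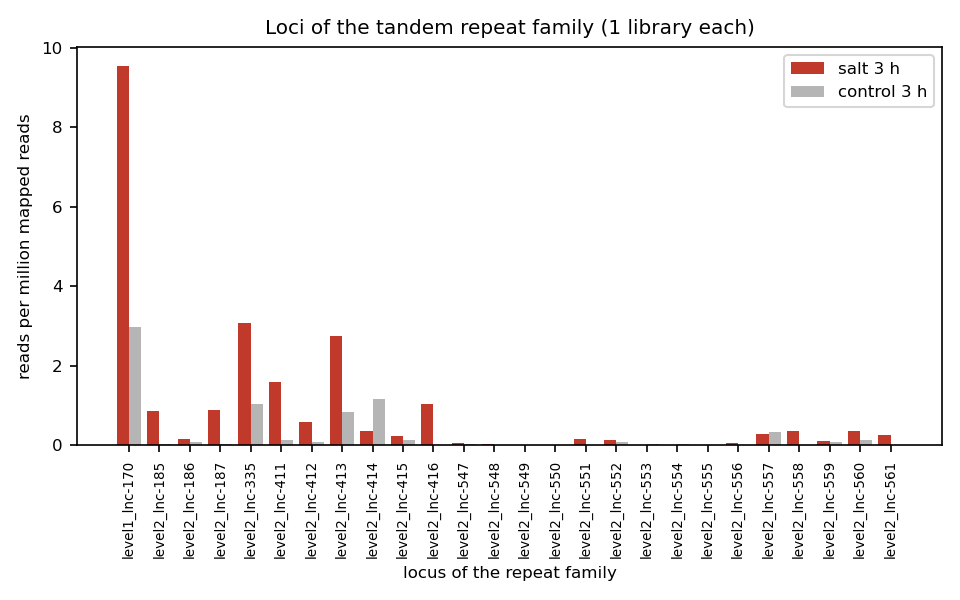
Bars give reads per M mapped reads of the 26 loci of the tandem repeat family, red for salt and grey for control at 3 h, 1 library each. level1_lnc-170 is the highest in both, at 301 reads in salt and 75 in control, and level2_lnc-414 is lower in salt.

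Some of the loci that were lower in salt were low in every stress library, and others had their lowest level in salt at 3 h. Of the 28, 11 were also called lower in drought, cold and heat at 3 h, all against the same control library. AT1G48698, opposite AT1G48700, had 0 reads in salt and 111 (12.4 RPKM) in control, at least 46.3-fold lower in salt, and it had 0 reads in the 7 other stress libraries too. AT3G27990, opposite AT3G27980, had 2 reads in salt and 143 in control, a ratio of 0.0112 (0.00134 to 0.0411), and 0 to 4 reads in the others. AT1G31935, 46 bp from AT1G31940, had 1 read in salt and 58 in control, and 0 to 6 in the others. For these 3 the control library alone was high. It also stood above every stress library for AT3G22121, AT2G33815, AT1G54355, AT4G37553, level1_lnc-24 and, by a small margin, level2_lnc-168, given next.

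AT3G22121 lies opposite CWLP, the gene of a cell wall linker protein. It had 0.636 RPKM (14 reads) in salt and 15.5 RPKM (273 reads) in control, a ratio of 0.0410 (0.0221 to 0.0699). The other stress libraries had 0.271 to 1.96 RPKM. AT2G33815 lies opposite SPL3, a transcription factor gene of the flowering pathway and a target of miR156 in this species. It had 0.300 RPKM (9 reads) in salt and 5.38 RPKM (129 reads) in control, a ratio of 0.0557 (0.0249 to 0.109). Its RPKM in the other stress libraries was 0.0306 to 1.20. AT1G54355, opposite the transporter gene ABCD2, had 12 reads in salt, 127 in control and 8 to 36 in the other stress libraries. AT4G37553 had 10 in salt, 63 in control and 1 to 9 in the others. level1_lnc-24 had 0 reads in salt and 51 in control, at least 21.3-fold lower, and 2 to 12 reads in the others. level2_lnc-168, on the transcribed pseudogene AT1G79245, had 35 reads in salt and 358 in control, a ratio of 0.0781 (0.0535 to 0.111). Cold at 12 h had 402 reads in a deeper library, which is 2.65 RPKM beside 2.99 RPKM in control.

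level1_lnc-169, printed above, had 2.41 RPKM (17 reads) in salt and 86.0 RPKM (485 reads) in control, a ratio of 0.0280 (0.0162 to 0.0453). Its sequence is 93.8% G or A, with an uninterrupted GA run of 160 of its 224 nt. The nuclear genome holds 26 GA or TC stretches of at least 100 nt, the length of a read. Which of them a read came from was not tested. Of the other stress libraries, 5 had 0 reads on it, drought at 3 h had 1 and heat at 12 h had 76.

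Loci that hold snoRNAs were among those that were low in salt at 3 h. Of 13 loci with a snoRNA on their strand, 3 were lower (23.1%) and 0 higher, beside 2.06% lower and 3.45% higher of all loci. A call of lower needs at least 1 RPKM in control, and 28 of the 55 loci at that level were lower. The 23.1% is thus not shown to be an excess among hosts. By RPKM, 9 of the 13 were below the control and 4 above it. The median log2(RPKM + 1) difference was -0.32 over these 13, which all had reads, and 0.16 over the 581 loci with reads. Of those 581, 297 had no control read and could only be positive. Reads on the 13 hosts summed to 892 in salt and 1252 in control, or 28.3 RPM in salt and 49.7 RPM in control, a ratio of 0.569 (0.522 to 0.621). The other stress libraries had 50.4 to 106 RPM, so salt at 3 h was the lowest of the 9. Reads were counted per locus, so those of the snoRNAs and of the rest of the host were not told apart. The largest part of the gap between salt and control lay in AT2G46192. AT2G46192, which holds AT2G09700 printed above and other snoRNAs, had 4.06 RPKM (106 reads) in salt and 17.1 RPKM (356 reads) in control, a ratio of 0.238 (0.190 to 0.296). In drought at 3 h it had 57.2 RPKM (1235 reads), which is 14.1 times (11.5 to 17.3) its RPKM in salt at 3 h. In salt at 12 h it had 29.8 RPKM (433 reads), 7.32 times (5.91 to 9.14) that at 3 h. AT5G06165, which holds AT5G01195, had 1.31 RPKM (38 reads) in salt and 5.31 RPKM (123 reads) in control, a ratio of 0.247 (0.167 to 0.358). AT1G15002 had 17 reads in salt and 57 in control, a ratio of 0.238 (0.130 to 0.415). AT3G55485 had 491 reads in salt and 494 in control, a ratio of 0.794 (0.699 to 0.901). AT2G43375 had 120 in salt and 130 in control, a ratio of 0.737 (0.571 to 0.952), and neither was called. AT1G18745 had 20 reads in salt and 2 in control, a ratio of 7.99 (1.94 to 70.5), but at 0.655 RPKM in salt it stayed under the call. Of 6 loci that hold a miRNA, 0 were called; AT4G13495 had 87 reads in salt and 52 in control, and AT5G26146 had 19 in salt and 0 in control.

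AT3G61198 and AT1G70185 were lower in salt as well. AT3G61198, 856 bp from AT3G61200, had 0.204 RPKM (4 reads) in salt and 2.04 RPKM (32 reads) in control, a ratio of 0.0999 (0.0257 to 0.282). It had 30 to 145 reads in each of the 7 other stress libraries. AT1G70185 had 0.941 RPKM (10 reads) in salt and 5.54 RPKM (47 reads) in control, a ratio of 0.170 (0.0766 to 0.341), and 12.4 RPKM (109 reads) in drought at 3 h. These 2 loci and the 3 snoRNA hosts AT1G15002, AT2G46192 and AT5G06165 are the 5 lower loci that were not called lower in drought, cold or heat at 3 h, and in salt at 3 h each had its lowest RPKM of the 9 libraries. AT1G15405, which took most lncRNA reads, likewise had its lowest level in salt at 3 h, 364 RPKM (3348 reads) beside 712 RPKM (5235 reads) in control. Its ratio of 0.511 (0.489 to 0.534) fell just short of a call at log2 -0.97, and the 7 other stress libraries had 496 to 946 RPKM. AT1G15405 has 2 alignments in the genome, and how reads that match both were placed is not stated. It also overlaps another lncRNA gene, AT1G05163, on its strand.

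Of the other loci with most reads in salt, AT2G23672, opposite YCF37, had 312 reads in salt and 306 in control, a ratio of 0.815 (0.693 to 0.957). AT1G76878, opposite AT1G76880, had 4.56 RPKM (225 reads) in salt and 11.4 RPKM (451 reads) in control, a ratio of 0.399 (0.338 to 0.469), while heat at 3 h had 32.5 RPKM (1885 reads). Of 8 known Arabidopsis noncoding RNAs listed, 4 are in the tables. GUT15 (AT2G18440), a noncoding RNA known for its fast turnover, had 1.07 RPKM (57 reads) in salt and 4.92 RPKM (210 reads) in control, a ratio of 0.217 (0.159 to 0.292). It overlaps a pseudogene on its strand, and the other stress libraries had 1.09 to 2.78 RPKM. DRIR (AT1G21529), known for a role in drought and salt tolerance, had 0 reads in both salt and control and at most 10 in any other library. ASCO (AT1G67105), which binds splicing factors, had 0 reads in salt and 1 in control, with 12 in salt at 12 h. ELENA1 (AT4G16355), known from immunity, had 1 read in salt and 0 in control.

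**Figure D5:**
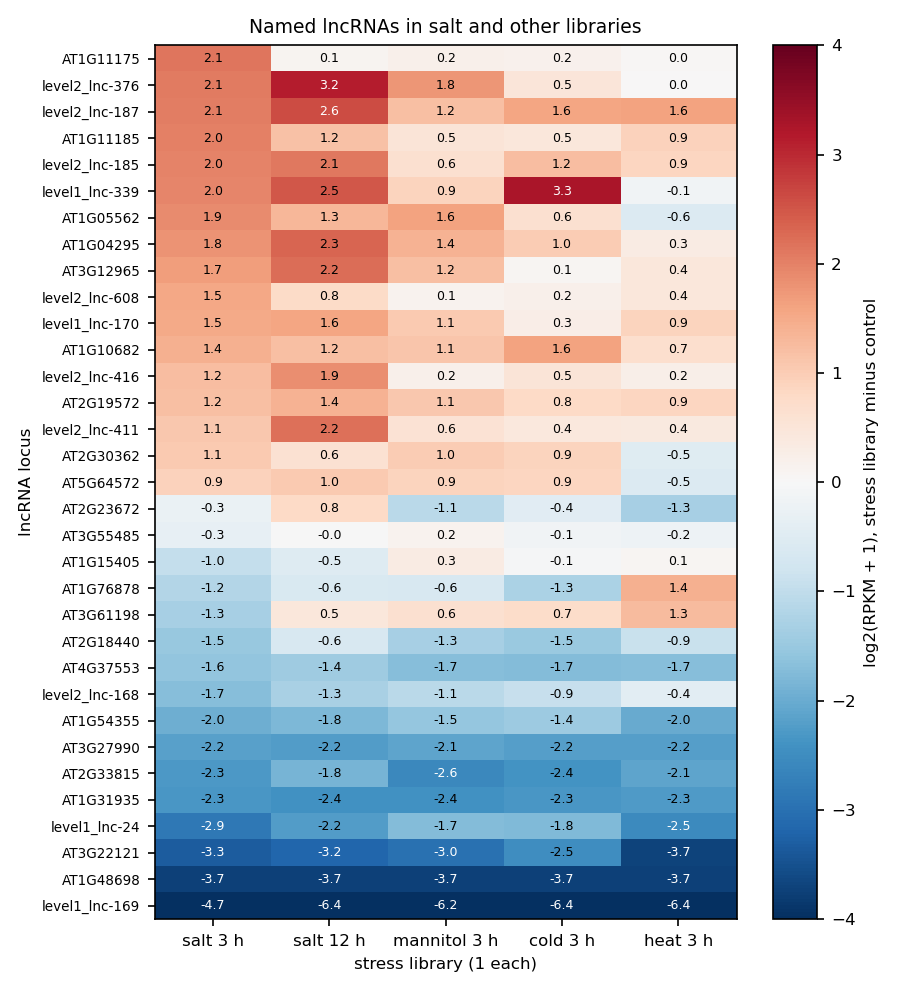
Colours and numbers give log2(RPKM + 1) in each stress library minus that in the control library, for the named loci, in salt at 3 h and 12 h, mannitol (drought), cold and heat at 3 h. AT1G11175 stands at 2.1 in salt at 3 h, and loci at the bottom such as AT1G48698 stand low in each column, which all share the 1 control library.

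Set beside the other comparisons with the same control, 30 of the 47 higher loci (63.8%) were also called higher in salt at 12 h, which is 28.8% of the 104 called there (7.64% of all loci). The control was taken at 3 h, so the calls at 12 h also carry a difference in time. In drought at 3 h, where 3.23% of all loci were higher, it was 16 of the 47 (34.0%, or 36.4% of the 44 called there). In cold at 3 h it was 10, where 2.2% of all loci were higher, and in heat at 3 h 5, where 1.17% were. Of the 28 lower loci, 15 were called lower in salt at 12 h, out of 16 called there (1.17% of all loci). In drought at 3 h it was 20, out of 22 called there (1.62%). In cold at 3 h it was 18 out of 20 (1.47%), and in heat at 3 h 16 out of 18 (1.32%). Most lower calls in each of these libraries were thus loci of the 28, and all rest on the same control library. Of the 47 higher loci, 26 were called higher in none of drought, cold and heat at 3 h. At least 20 reads in salt and control together were on 10 of these, among them AT1G11175, AT1G11185, level2_lnc-411, level2_lnc-416 and level2_lnc-608. A locus called in 1 comparison and not in another is not shown to differ between them, and no such difference was tested. Compared directly, AT1G11175 was 11.2 times (5.47 to 26.5) as high in salt as in drought at 3 h, and AT1G11185 was 5.61 times (2.77 to 12.9) as high.

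The authors' deposited table of stress-responsive lncRNAs names 17 predicted poly(A)- loci for salt, chosen by the authors on these libraries. Poly(A)+ loci, which the authors chose on other libraries, are not counted among the 17. In salt at 3 h, 7 of the 17 had reads. Called higher were 2 (level1_lnc-311 with 11 reads and level1_lnc-316 with 5, both with 0 in control). Called lower was 1, level2_lnc-508, with 0 reads in salt and 8 in control. Over all loci, 3.45% were higher and 2.06% lower. The 10 with no read in salt at 3 h all had reads in salt at 12 h. The authors' deposited table of gene ontology terms covers coding genes co-expressed with lncRNAs. It links 33 lncRNAs, 29 of them predicted, to the response to salt stress (false discovery rate 3.4e-12). These links rest on co-expression and are not outside evidence of a salt function. Of the 29 predicted ones, 16 had reads in salt or control and 3 were called higher: level1_lnc-339, level2_lnc-376 and level1_lnc-315. None was called lower. Beside the 3.45% higher and 2.06% lower of all loci, no excess was tested.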

How the data were processed

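Values were RPKM of 9 poly(A)- libraries, computed by the authors and deposited per locus. Bowtie 0.12.9, TopHat2 2.0.8, Cufflinks and the build TAIR10 are named, per the submitters' processing notes; for the counting rule, and for how reads with several matches were placed, nothing is stated in the labels or headers. Transcripts also carry deposited scores (conservation, histone marks), used only to check row order, and the authors' deposited table of gene ontology terms gives false discovery rates, read as p-values of the authors. Another 24 columns of per-sample values were not used.

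RPKM times exon length gave whole reads for 2790 of 2790 non-zero values of predicted loci, within 0.02 reads. Annotated values were whole in 79 of 1922 cases (4.11%) as deposited and in 1922 of 1922 after giving them to the loci sorted by the number after G of the locus identifier; for 39 annotated loci at 0 throughout, the match rests on the order alone. Spearman's rho across the 384 annotated loci between the highest RPKM and the H3K4me3 score was 0.385 re-matched and 0.0451 as deposited. This is a description, since loci are not independent. Annotated entries of the authors' stress list and ontology lists were not used, since which order they follow was not tested.

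Positions are those of the files. Overlaps, distances and sequences come from RefSeq TAIR10.1, in which all 384 annotated loci overlap the gene of the same identifier and 203 have the same start and end. Copies were found with BLAST 2.17.0 (at least 90% identity and coverage). Computation used Python 3.11.15, pandas 2.3.3 and scipy 1.17.1, and the steps were tested on simulated data.

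Loci are named by rule: with at least 20 reads in salt and control together, the 14 higher loci with the highest lower bound of the ratio, the 12 lower ones with the lowest upper bound (a count of 0 set to 3 reads for both bounds), the 8 with most reads in salt, and listed noncoding RNAs and neighbours of listed salt genes. Loci, lists and rules were chosen with earlier results of these data known. Other pseudocounts, folds, scalings, filters and subsets of loci were tried.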

Additional observations from a re-analysis of the deposited data

Results flagged for a closer look

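A few loci were at least 2-fold lower in salt at 3 h and at least 2-fold higher in another stress library at 3 h, against the same control library; these differences between stresses were not tested, since each condition has 1 library. On the log2(RPKM + 1) scale, AT2G46192 stood at -1.84 in salt and 1.69 in drought, AT1G15002 at -1.41 in salt and 1.06 in drought, and AT1G70185 at -1.75 in salt and 1.03 in drought. AT1G76878 stood at -1.16 in salt and 1.43 in heat, and AT3G61198 at -1.34 in salt and 1.26 in heat. AT2G46192 and AT1G15002 are snoRNA hosts.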

How the results depend on the processing

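The counts of 47 higher and 28 lower loci (62.7% higher) moved with the pseudocount, the fold and the kind of locus. A pseudocount of 0.1 RPKM gave 282 higher and 81 lower (77.7% higher), 0.5 RPKM gave 90 higher, no pseudocount with a counting interval away from 1 gave 93 higher, and a fold of at least 4 gave 5 higher and 7 lower (41.7% higher). Predicted loci alone gave 14 lower (73.6% higher), and annotated loci alone gave 8 higher and 14 lower (36.4% higher). Scaling by the 59 common loci gave 42 higher and 29 lower, and scaling by lncRNA reads without AT1G15405 gave 47 and 28. Without loci on the strand of a coding gene, 33 were higher and 26 lower. Of 2 settings added after seeing the data, loci with 1 genome alignment gave 37 and 24, and leaving out the repeat family gave 38 and 27. With annotated values in the deposited order, in which few reads are whole, the sign turned for AT1G05562 (-0.0703), AT1G10682 (-0.32), AT2G30362 (-0.12), AT1G48698 (0.064), AT1G31935 (0.13) and AT2G33815 (0.23) on the log2(RPKM + 1) scale, and for AT1G15405 (0.31) and AT1G67105 (0.26), which are not called. No paired analysis was possible because each condition has 1 library and the result comes from no test. Depth limits low loci: 18 of the 47 higher and 6 of the 28 lower loci had under 20 reads in salt and control together.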
